A study of Mus musculus with 38 samples.

Results

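Halo-H2DBD, the DNA-binding domain (DBD) of HSF2 on its own, was profiled by CUT&Tag, an assay that tags DNA next to a bound antibody, and its signal in mitotic cells (M) was compared with that in asynchronous cells (A) at each HSF2 binding site. The sites were those the authors called for endogenous HSF2 and were not called again for the DBD. Of 2141 rows in the deposited site table, 2135 were distinct intervals, and 2134 of these had a signal above 0 in both phases. The remaining site, in an intron at chr4:154576752-154577696 (mm10, as all coordinates here), had a signal of 0.514 in A and was listed at 0 in M.

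The 4 Halo-H2DBD libraries, 2 asynchronous and 2 mitotic, are part of a series of 38 libraries from the mouse embryonic stem cell line JM8. All 4 came from Hsf2 knockout cells, in which the Hsf2 locus had been deleted with CRISPR in picked clones, and which stably overexpressed an HA-tagged HaloTag fusion of the DBD from a transposon-borne EF1α promoter under G418 selection. The construct carries a nuclear localisation signal and lacks the oligomerisation, regulatory and activation domains of HSF2, and it was recovered with an anti-HA antibody. Mitotic cells had been treated with nocodazole, a drug that blocks spindle assembly, at 50 ng/ml for 6 h and collected by shake-off, whereas asynchronous cells were untreated, so that phase and nocodazole cannot be told apart. The other signals over the same sites are quoted for comparison. They are Halo-HSF2, the whole protein fused to the HaloTag in the same knockout background, and endogenous HSF2 in unedited JM8 cells (anti-HSF2). Halo-HSF2 was read with anti-HA in libraries labelled as HA-tagged, and with anti-HSF2 in separate libraries whose labels name no HA tag. The binding data cannot check the embryonic stem cell label, and no HSF2 site lay within 1 kb of an Hsf2 start, so the deletion could not be checked either. The anti-HA control libraries were not analysed here, and no background was subtracted.

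Heat shock factors are transcription factors that bind DNA as trimers. Each DBD contacts one GAA unit, and a functional heat shock element is a row of such units in alternating orientation. Full-length HSF2 forms trimers through a coiled-coil region that the construct does not have. HSF1 and HSF2 bind the promoters of chaperone genes, whose products fold proteins and protect them under stress, and in mitosis chromosomes condense and most transcription stops.

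Every value below is a mean over the bases of one site, in coverage scaled by the authors to Drosophila S2 cells added as a spike-in, and averaged by them over the 2 libraries of a condition. There is therefore 1 value a phase, the spread between libraries is unknown, and no difference between M and A was tested. The signals carry no read counts, so depth was not used. The log2 M/A is the base-2 logarithm of the signal in M divided by that in A, and 95% intervals (order-statistic for medians, Wilson for shares) cover the spread over sites only. Sites are not replicates. The signal averages over all cells of a library, so fewer bound cells and less binding per cell cannot be told apart.

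Heat shock elements are shown first, because the presence of an element was one of the properties by which sites differed. They are those of some of the sites with the highest and lowest ratios and those of some chaperone genes, whose ratios are smaller. An element was defined as 3 or more GAA and TTC units in alternation, each 2 bases from the next. On the assembled chromosomes 300 of 2131 sites (14.1%) held one, against 0.603% of 32851 RefSeq promoters, whose windows are shorter than most sites, so the shares do not cover equal lengths. Sequences are from GRCm38.p6, plus strand, with the units in capitals. Where the surroundings overlap an exon only the element is given. The first lines are elements of sites with a higher mitotic signal.
Hsph1, chr5:149636288-149636300: GAActTTCcaGAA
Cdv3, chr9:103366101-103366143: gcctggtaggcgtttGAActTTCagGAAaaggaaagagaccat
Aldh1a2, chr9:71215356-71215398: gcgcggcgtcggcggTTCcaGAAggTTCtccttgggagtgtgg
Myrf, chr19:10241319-10241361: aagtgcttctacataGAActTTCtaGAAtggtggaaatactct
near Pdgfa, chr5:138991653-138991695: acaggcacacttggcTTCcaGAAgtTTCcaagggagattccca
The next lines are elements of sites with a lower mitotic signal.
Cct4, chr11:22990645-22990657: TTCtgGAAggTTC
Dnajb6, chr5:29735852-29735864: GAAtcTTCcgGAA
Dnaja1, chr4:40722534-40722546: GAActTTCcaGAA
Chordc1, chr9:18292263-18292285: GAAcgTTCggGAAaaTTCctGAA
Hspd1 and Hspe1, chr1:55088044-55088091: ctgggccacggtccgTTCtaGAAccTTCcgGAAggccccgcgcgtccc
intron of Etl4, chr2:20563579-20563626: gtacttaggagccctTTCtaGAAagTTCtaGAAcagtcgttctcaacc
near Hspa4, chr11:53258051-53258093: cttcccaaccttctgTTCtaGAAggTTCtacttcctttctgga
site listed at 0 in M, chr4:154577341-154577388: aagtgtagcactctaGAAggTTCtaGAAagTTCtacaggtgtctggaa
The elements of Hsph1 and Dnaja1 read the same, letter for letter, although their sites lie on opposite sides of equal signal.

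A second set of sequences is shown for the small RNA genes, where sites of different kinds lay on different sides. Small nuclear RNAs (snRNAs) other than U6 are transcribed by RNA polymerase II from short dedicated promoters, whereas tRNAs and U6 are transcribed by RNA polymerase III. The 80 bases before the U1 gene Gm22317 and the U2 gene Rnu2-10, whose sites had a lower mitotic signal, are given in the direction of transcription, with the longest run that both share in capitals.
Gm22317 (U1), minus strand, chr12:54738623-54738702: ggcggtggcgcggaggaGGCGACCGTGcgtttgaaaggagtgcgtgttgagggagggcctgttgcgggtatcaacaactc
Rnu2-10 (U2), plus strand, chr11:101658158-101658237: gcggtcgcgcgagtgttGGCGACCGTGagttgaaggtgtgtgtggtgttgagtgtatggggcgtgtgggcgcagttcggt
Gm24019 (U6), plus strand, chr10:79909115-79909194: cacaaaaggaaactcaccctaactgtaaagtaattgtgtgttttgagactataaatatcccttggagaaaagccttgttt
The shared run of 10 bases stood before 3 of the 28 snRNA genes at HSF2 sites (Gm22317, Gm22634 and Rnu2-10) and in 0.0822% of the RefSeq promoters, on either strand. It was picked from Gm22317 and Rnu2-10 themselves, and Gm22634 is identical to Gm22317 over these 80 bases. The count therefore follows from the choice of the run, and no link of the run with direction can be read from it. The U6 gene Gm24019, whose site had a higher mitotic signal, does not carry it. A pair of tRNA genes from sites with a higher mitotic signal is given whole, with the B box (GTTCNANNC, the internal promoter element of tRNA genes) in capitals.
n-TEttc8 (tRNA-Glu), minus strand, chr9:104408667-104408738: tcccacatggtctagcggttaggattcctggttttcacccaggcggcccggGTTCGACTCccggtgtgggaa
n-TRtcg5 (tRNA-Arg), plus strand, chr7:79466419-79466491: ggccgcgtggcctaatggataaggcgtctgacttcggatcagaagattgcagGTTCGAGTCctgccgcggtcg
On the strand of the gene, 371 of 403 annotated tRNA genes (92.1%) hold these letters. They also occur on either strand somewhere in 65.5% of the HSF2 sites, so they do not set a site apart.

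Over all sites the DBD signal was spread almost evenly around equal levels in the 2 phases. It was higher in mitotic cells at 1251 of 2134 sites, a share of 58.6% (95% interval 56.5 to 60.7), and lower at 883 (41.4%). The lower and upper quartiles of the log2 M/A were -0.25 and 0.40. Halo-HSF2, by contrast, was higher in mitotic cells at 86.3% of the same sites. At 85 sites (3.98%) the mitotic signal of the DBD was 2-fold or more above the asynchronous signal, and at 72 sites (3.37%) it was 2-fold or more below it.

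**Figure D1:**
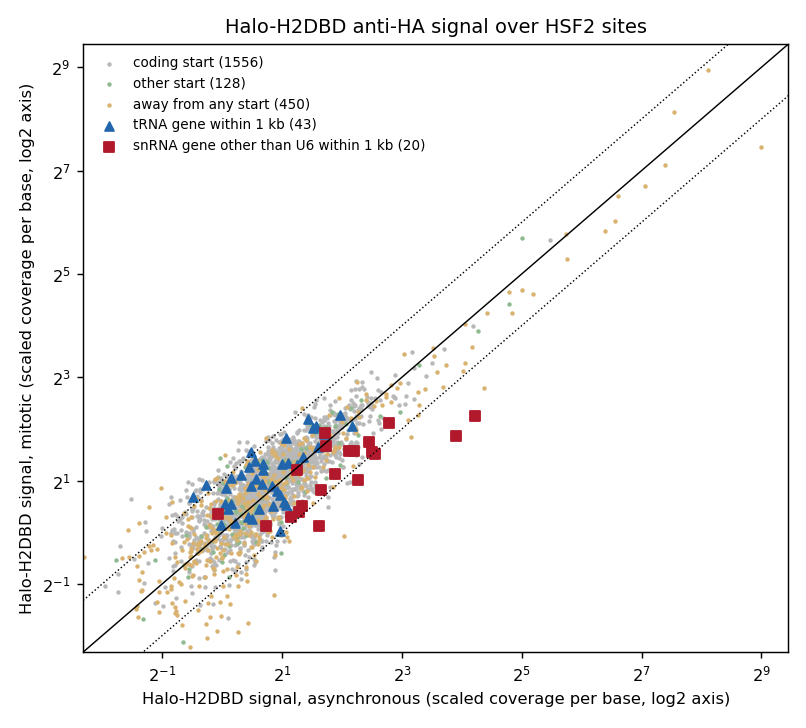
Asynchronous (horizontal) against mitotic (vertical) Halo-H2DBD signal in scaled coverage per base, both on log2 axes, with 1 point a site coloured by start class; 15 sites with a signal under 0.2 in either phase lie outside the axes. The solid line marks equal signal and the dotted lines a 2-fold difference, and the red squares (small nuclear RNA genes other than U6) lie mostly below the solid line while most blue triangles (tRNA genes) lie above it.

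The strongest DBD signals came from short intervals away from coding starts. In the plot of mitotic against asynchronous signal these are the points at the upper right. The highest asynchronous signal, 509, stood at chr2:98663689-98664090, an exonic site with 65.4% repeat sequence, where the mitotic signal was 176 (log2 M/A -1.53). The highest mitotic signal, 493, stood at the intergenic site chr10:85025974-85026270, whose asynchronous signal was 275 (log2 M/A 0.84). The next site in mitotic rank, chr5:60042719-60043085, went from 187 in A to 282 in M (log2 M/A 0.59). These 3 sites thus differed in direction, and all had a higher mitotic signal of Halo-HSF2, as did 86.3% of all its sites. In the order given, their asynchronous signal was 122, 277 and 175 for Halo-HSF2 and 127, 142 and 141 for endogenous HSF2. Strength at these 3 sites was therefore not particular to the DBD, and mapping artefacts were not tested. Most of the following sites were lower in M. The signal was 134 in A against 104 in M at chr1:183299133-183299592, 97.5 against 90.7 at chr4:153153035-153153942, and 94.6 against 64.8 at chr11:54140022-54140716. It was 83.7 against 56.6 at chrY:4036379-4036748, 54.2 against 39.1 at chr10:22141999-22143322, and 53.3 against 55.0 at chr19:61199491-61199848. The site of the predicted genes Gm11407, Gm11408 and Gm11410, 10th in mitotic rank, had 32.3 in A against 51.9 in M (log2 M/A 0.69). The 10 strongest sites held 26.4% of the summed asynchronous signal and 24.1% of the summed mitotic signal, and 3 of the 10 in each phase were at least 50% repeat. Sums of signal therefore follow a few sites, and the medians below do not. The median site had a signal of 1.64 in asynchronous and 1.82 in mitotic cells, and a signal of 10 was reached at 36 and 27 sites.

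The DBD was higher in mitotic cells more often at coding starts than away from them. Of the 2134 sites, 1556 lay within 1 kb of a protein-coding transcript start, 128 within 1 kb of another start only, and 450 away from any start. At coding starts the median log2 M/A of the DBD was 0.13 (0.11 to 0.15), and 62.9% of sites had a higher mitotic signal. At other starts the median was 0.0024 (-0.14 to 0.13), with 50.0% higher. Away from starts the median was -0.048 (-0.11 to 0.017), with 46.2% higher. The difference between coding starts and sites away from starts was 0.18 in log2 M/A (0.11 to 0.24), an interval over sites that does not contain 0. Halo-HSF2 had medians of 0.57, 0.58 and 0.58 over the same 3 classes, but it too was higher in M more often at coding starts (88.4%) than at other starts (79.7%) or away from starts (81.1%). Endogenous HSF2 had the same order in its medians, 0.62, 0.36 and 0.052, so the order was not particular to the DBD. Sites away from starts did not differ clearly by location, with medians of -0.083 at 97 exonic, -0.068 at 231 intergenic and -0.0089 at 118 intronic sites. Among coding starts, 1324 sites with starts on one strand had a median of 0.14, and 232 with starts on both strands had 0.079.

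Sites that held a heat shock element had lower log2 M/A values of the DBD than sites without one. At the 299 sites with an element the median signal was 1.18 in A and 1.13 in M, the median log2 M/A was -0.063 (-0.15 to -0.0010), and 44.1% of sites were higher in M. At the 1831 sites without one the median signal was higher in both phases, 1.75 in A and 1.95 in M. Their median log2 M/A was 0.12 (0.092 to 0.14), and 61.0% were higher. The difference was -0.18 (-0.25 to -0.10). The class that stood lowest joined both properties. At 123 sites with an element away from any start, the median log2 M/A was -0.22 (-0.36 to -0.083), and 34.1% were higher in M. There, 24 (19.5%) were 2-fold or more lower, against 3.37% of all sites. Only 2 (1.63%) were 2-fold or more higher, against 3.98% of all sites. Their median signal was low, at 0.865 in A and 0.787 in M, and Halo-HSF2 at the same sites had a median log2 M/A of 0.65, with 77.2% higher in M against 86.3% of all its sites. Endogenous HSF2 also stood low there, with a median of -0.26. Over all sites with an element its median was 0.011, against 0.59 at sites without one. At coding starts with an element (152 sites) the DBD median was 0.0041 (-0.099 to 0.12), and at coding starts without one (1404 sites) it was 0.14 (0.11 to 0.16). Away from starts without an element (323 sites) it was 0.022 (-0.073 to 0.081). The median followed the number of units: 0.14 at 633 sites with no pair of alternating units, 0.11 at 1198 with 2 units, -0.048 at 276 with 3, and -0.22 (-0.71 to 0.081) at 23 with 4 or more. The interval of the last class contains 0.

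**Figure D2:**
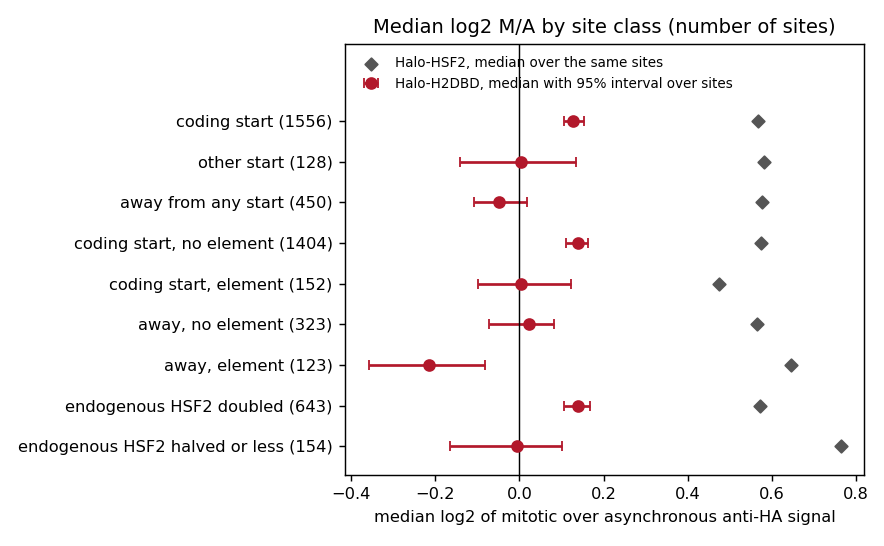
Median log2 M/A (horizontal) in each site class (vertical, number of sites in brackets), with Halo-H2DBD as red circles whose bars are 95% intervals over sites, and Halo-HSF2 as grey diamonds. The red circles run from -0.22 at sites with an element away from starts to 0.14 at coding starts without one, whereas every diamond lies to the right of every circle.

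Individual sites with an element spanned both directions. The lowest log2 M/A of all, -5.55, was at the site in an intron of Etl4 (chr2:20562903-20563803), with a signal of 0.716 in A and 0.0153 in M. The site 42092 bp from Hspa4, which encodes an HSP110-type chaperone (chr11:53257599-53258365), had 1.35 in A against 0.295 in M (log2 M/A -2.19). Another 3 of the lowest 5 lay away from starts too, with log2 M/A values of -3.18, -2.64 and -2.53 and mitotic signals of 0.150 or less. The printed elements of the Etl4 site and of the site listed at 0 in M hold 4 units in a row. In the other direction, the site 2778 bp from Pdgfa, the gene of a platelet-derived growth factor chain (chr5:138991198-138992175), had 0.494 in A against 1.81 in M (log2 M/A 1.87). Its neighbours in rank lay at coding starts. Myrf, a myelin gene regulator, had 0.675 in A against 1.97 in M (1.54 in log2 M/A). Aldh1a2, which makes retinoic acid, had 0.703 in A against 1.91 in M (log2 M/A 1.44). Gtf3a, which encodes the 5S rRNA factor TFIIIA, had 0.414 in A against 1.02 in M (log2 M/A 1.30). Of these signals, the mitotic ones of Myrf and Aldh1a2 alone exceeded the medians over all sites.

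Sequence composition ordered the sites as well, for the DBD and for the proteins compared with it. From the lowest to the highest quartile of GC content, the median log2 M/A of the DBD was -0.044, 0.061, 0.12 and 0.18, and the share of sites with a higher mitotic signal was 46.9%, 56.4%, 61.8% and 69.4%. Over the same quartiles the medians of Halo-HSF2 were 0.44, 0.54, 0.58 and 0.66, and those of endogenous HSF2 were 0.22, 0.55, 0.59 and 0.67. By the ratio of observed to expected CpG, which is high in CpG islands, the medians were -0.083, 0.092, 0.17 and 0.15. Within coding starts alone they were 0.028, 0.15, 0.15 and 0.17. Sites with less CpG thus stood lower within this class too. Strength, taken as the mean Halo-HSF2 signal so that the DBD did not sort itself, gave medians of 0.017, 0.15, 0.14 and 0.058 with no steady order. Sorted by the asynchronous DBD signal, which is also the denominator of the ratio, the medians ran from 0.26 in the lowest to -0.029 in the highest quartile. The 53 sites with at least 50% repeat sequence had a median of -0.18 (-0.45 to -0.015). GC content, CpG, element and start class are linked among these sites, and their separate parts were not tested.

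**Figure D3:**
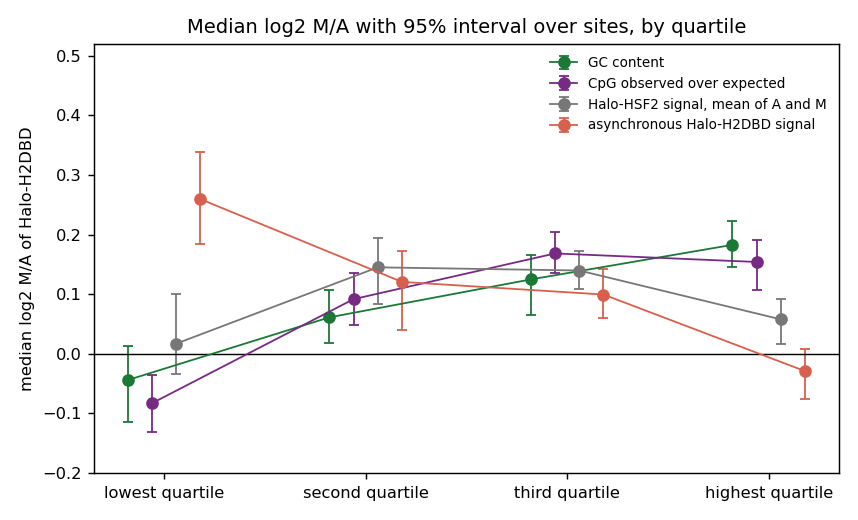
Median log2 M/A of Halo-H2DBD (vertical) in quartiles of sites (horizontal) by GC content, CpG ratio, Halo-HSF2 signal and asynchronous Halo-H2DBD signal, with bars for 95% intervals over sites. The median goes up with GC content from -0.044 to 0.18 and down with asynchronous signal, which is the denominator of the ratio, from 0.26 to -0.029.

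Overlap with other factors gave small differences. The median log2 M/A of the DBD was 0.064 at 867 sites that overlap an HSF1 site and 0.12 at 1267 that do not, a difference of -0.052 (-0.099 to -0.0048). It was 0.046 at 407 sites that overlap a site of SOX2, a pluripotency factor, and 0.11 at the other 1727, a difference of -0.064 (-0.12 to -0.0092). At the 643 sites (30.1%) where endogenous HSF2 was 2-fold or more higher in mitotic cells, the DBD median was 0.14 and 64.4% were higher. At the 154 sites where endogenous HSF2 was 2-fold or more lower (7.26% of sites), it was -0.0055 and 49.4%. The difference between these classes was 0.14 (0.0084 to 0.28). Where Halo-HSF2 was 2-fold or more higher (422 sites, 19.8%) the DBD median was 0.23, and where it was 2-fold or more lower (18 sites, 0.843%) it was -0.47 (-1.36 to 0.15). Across sites, the log2 M/A of the DBD had a Spearman rho of 0.205 with that of Halo-HSF2 under the same antibody (2134 sites), of 0.089 with Halo-HSF2 under anti-HSF2 (2120 sites), and of 0.098 with endogenous HSF2 (2134 sites). These points share their intervals and base composition, and the first pair also shares its antibody.

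The sites past 2-fold were of different kinds in the 2 directions. Of the 85 with a higher mitotic signal, 74.1% lay at coding starts and 10.6% held an element, near the 72.9% and 14.0% of all sites. Of the 72 with a lower one, 31.9% lay at coding starts, 59.7% away from any start, and 38.9% held an element. The median signal of the first set was 0.790 in A and 1.95 in M, and that of the second 1.31 in A and 0.545 in M. A mean signal under 1 was found in 55.6% of the second set, against 15.3% of all sites. Halo-HSF2 was higher in M at 78 of the 85 and at 51 of the 72, against its background of 86.3%.

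At chaperone genes the median log2 M/A of the DBD lay below 0 in 4 of 5 lists, and the range within each list was wide. Lists of other genes given below also had medians under 0, such as -0.12 for cytosolic ribosomal proteins and -0.21 for histones. A median below 0 was thus not particular to chaperone genes. HSP90, which matures kinases and receptors, and its co-chaperones had 10 of 22 genes with a site, of which 3 were higher in M, with a median log2 M/A of -0.12 against 0.098 over all sites. Over all sites 58.6% were higher in M, and each count of members in this and the following lists is to be read against that share. Over lists this small most of these counts lie within the counting range of that share. Halo-HSF2 was higher at 8 of these 10, against 86.3% of all sites. The major HSP90 genes stood near equal signal. Hsp90aa1 (chr12:110693602-110705488) had 1.34 in A against 1.19 in M (log2 M/A -0.17), and Hsp90ab1 had 2.58 in A against 2.37 in M (log2 M/A -0.13). The DBD signal of Hsp90aa1 lay below the medians over all sites, 1.64 in A and 1.82 in M, and that of Hsp90ab1 above them. Endogenous HSF2, read with another antibody, had 75.7 in A and 60.3 in M at Hsp90aa1, and 104 and 102 at Hsp90ab1. Lowest in the ratio of the DBD was Chordc1, an HSP90-binding protein gene whose element of 5 units is printed above, with 1.13 in A against 0.690 in M (log2 M/A -0.71). Highest in both signal and ratio was Ahsa2, related to the HSP90 ATPase activator, with 3.50 in A against 5.17 in M (log2 M/A 0.56).

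HSP70 and HSP110 genes, whose products bind unfolded chains, had 7 of 15 members with a site, at 6 sites with a median log2 M/A of -0.12 and 3 higher in M. Hspa8, the constitutive HSP70 (chr9:40797528-40808044), had 2.21 in A against 1.61 in M (log2 M/A -0.46). The site of the stress-inducible Hspa1a and its neighbour Hspa1l had 1.28 in A against 0.933 in M (log2 M/A -0.46), while that of the paralog Hspa1b had 1.10 in A against 1.16 in M (log2 M/A 0.078). Hspa1a and Hspa1b are near-identical genes whose reads the mapping may split. The highest ratios of the list were at the HSP110 genes Hspa4l, 0.726 in A against 1.59 in M (log2 M/A 1.13), and Hsph1 (chr5:149634578-149637412), 1.10 in A against 2.55 in M (log2 M/A 1.22). Both were past 2-fold, as were 3.98% of all sites. Their asynchronous signals lay under the median of 1.64 over all sites. Halo-HSF2 had log2 M/A values of 1.80 at Hspa4l and 0.38 at Hsph1, whereas endogenous HSF2 had -0.79 and -0.24.

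The J-domain HSP40 proteins and BAG proteins, which drive the HSP70 cycle, had 9 of 43 genes with a site, 4 of them (44.4%, 95% interval 18.9 to 73.3) higher in M, with a median of -0.17. Dnajb6 had 1.58 in A against 0.817 in M (log2 M/A -0.95), and Dnaja1 had 1.36 in A against 0.717 in M (log2 M/A -0.93). Halo-HSF2 differed in sign at both, with log2 M/A values of 0.61 and 0.55, and it was higher in M at all 9 sites, against 86.3% overall. The highest ratio of the DBD was at Bag3, 0.614 in A against 1.20 in M (log2 M/A 0.97). Hspbp1, a nucleotide exchange factor gene, had the highest signal, 4.73 in A against 3.30 in M (log2 M/A -0.52). Chaperonins, the ring-shaped folding chambers, and prefoldin had 8 of 17 genes at 7 sites, 2 higher in M, with a median of -0.15. Cct4, a subunit of the cytosolic ring, had 1.25 in A against 0.583 in M (log2 M/A -1.10), and was the single chaperonin site at 2-fold or more lower (3.37% of all sites). The shared promoter of Hspd1 and Hspe1, the mitochondrial chaperonin and its cofactor, had 1.59 in A against 1.29 in M (log2 M/A -0.30). Cct6a had 2.24 in A against 2.61 in M (log2 M/A 0.22).

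The remaining proteostasis lists were small. Of the small heat shock proteins and the collagen chaperone SERPINH1, 3 of 11 genes had a site, with log2 M/A values of -0.16 at Hspb1, 0.14 at Hspb11 and 0.95 at Serpinh1. Proteasome and ubiquitin genes had 6 of 53 with a site, 4 higher in M, and a median of 0.20, from -0.23 at the polyubiquitin gene Ubb (1.94 in A, 1.66 in M) to 0.63 at the proteasome subunit gene Psmd3 (1.98 in A, 3.06 in M). Of the heat shock factor genes, Hsf1 had 1.22 in A against 1.50 in M (log2 M/A 0.30) and Hsf4 2.07 in A against 1.89 in M (log2 M/A -0.13), while the other 4 had no site.

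Pluripotency genes, which maintain the embryonic stem cell state, had 7 of 25 members with a site, 2 of them higher in M (28.6%, 95% interval 8.22 to 64.1, which contains the 58.6% of all sites), with a median log2 M/A of -0.21. Klf4 (chr4:55531516-55534020) had 1.82 in A against 0.714 in M (log2 M/A -1.35), the lowest of the list. Halo-HSF2 had 0.45 there and endogenous HSF2 1.82, both in log2 M/A. Pou5f1 had 1.94 in A against 1.23 in M (log2 M/A -0.66). Klf5 was highest, with 1.38 in A against 1.90 in M (log2 M/A 0.46), and Trim28, a heterochromatin corepressor gene, had the highest signal, 2.66 in A against 2.83 in M (log2 M/A 0.088). Of 20 markers of differentiated lineages 2 had a site, Eomes at 1.14 in both phases and Tfap2c at 0.811 in A against 1.12 in M (log2 M/A 0.46).

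Replication-dependent histone genes had 38 of 67 members at 17 sites, since the genes lie in clusters, and 12 of the 17 sites were lower in M, with a median log2 M/A of -0.21 against 41.4% of sites lower overall. Hist1h3e had 4.37 in A against 1.95 in M (log2 M/A -1.16). The site shared by Hist1h1a, Hist1h3a and Hist1h4a had the highest signal, 4.87 in A against 2.49 in M (log2 M/A -0.97). The highest ratio was at Hist2h2aa1 and Hist2h3c1, 2.54 in A against 3.17 in M (log2 M/A 0.32). Halo-HSF2 was higher at 4 of the 17 sites, against 86.3% of all sites, with a median of -0.060, both constructs being read with anti-HA. Endogenous HSF2, read with anti-HSF2, was higher in M at 14 of the 17 sites, against 72.3% of all sites, with a median of 0.34. Histone genes are repeated in near-identical copies, and reads may be split among them.

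Medians of the other lists ran from -0.12, which was also the value of the HSP90 and HSP70 lists, to 0.092. The counts of sites higher in M are again to be set beside the 58.6% of all sites. Cytosolic ribosomal proteins had 18 sites, 7 higher in M, with a median of -0.12, from Rps13 (1.44 in A, 0.920 in M) to Rps29 (2.12 in A, 3.53 in M). Splicing SR and hnRNP proteins had 12 sites, 5 higher, with a median of -0.12, from Tra2b (log2 M/A -0.48) to Hnrnpll (log2 M/A 1.16), and Hnrnpa1 was strongest with 8.42 in A and 6.25 in M. Translation factors had 9 sites, 4 higher, with a median of -0.012, from Eif4g1 (1.52 in A, 1.04 in M) to Eif3a (0.596 in A, 0.988 in M), and Eif4a1 was strongest with 7.39 in A and 6.07 in M. Immediate early and stress genes, which respond to signals within minutes, had 10 sites, 7 higher, with a median of 0.092, from Jund (2.69 in A, 1.61 in M) to the phosphatase gene Dusp1 (1.72 in A, 3.45 in M). Of 45 mitosis regulators 2 had a site, the condensin gene Ncapd2 with 1.49 in A and 1.39 in M and the centromere gene Cenpf with 1.37 in A and 1.32 in M.

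**Figure D4:**
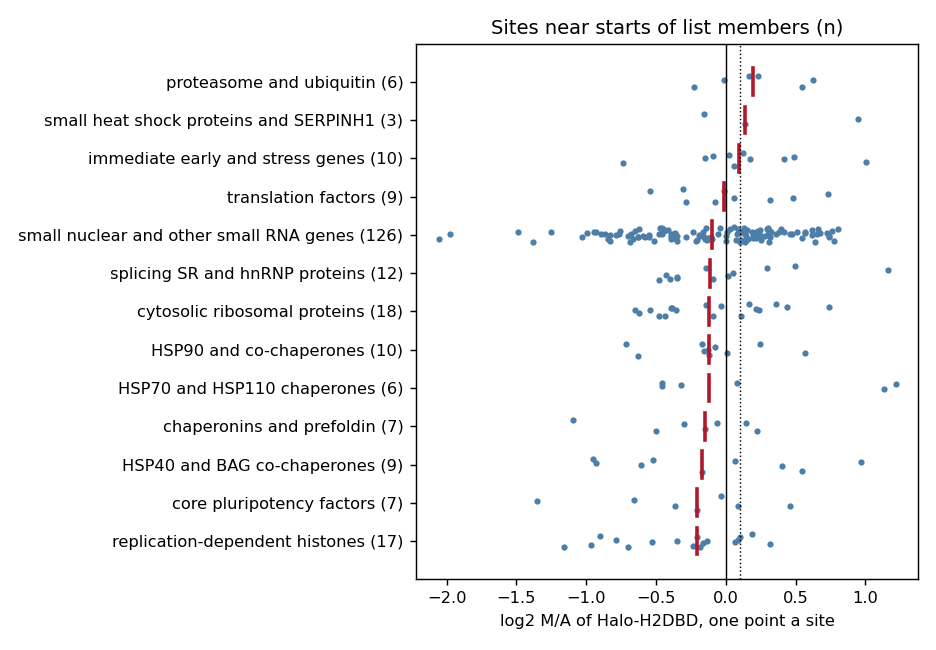
The log2 M/A of Halo-H2DBD (horizontal) at sites within 1 kb of a start of each list's members (vertical, number of sites in brackets, lists with 3 or more sites), with 1 point a site, a red bar for the list's median, a solid line at equal signal and a dotted line at 0.098, the median of all sites. The red bars run from -0.21 for histones and pluripotency factors to 0.20 for proteasome and ubiquitin genes, and points of most lists lie on both sides of 0.

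Among small RNA genes, the sites of snRNAs and small nucleolar RNAs (snoRNAs) had medians below equal signal. The list of small RNA genes from GENCODE had 126 sites with a median log2 M/A of -0.10. Of these, 59 (46.8%) were higher in M, against 58.6% of all sites. None was 2-fold or more higher, against 3.98% of all sites, and 6 (4.76%) were 2-fold or more lower, against 3.37%. The highest ratio was at n-TStga1 (log2 M/A 0.80), and the strongest site, Gm27940, had 19.3 in A against 14.9 in M (log2 M/A -0.37). By type the medians were -0.63 (-0.83 to -0.040) at 25 snRNA sites and -0.44 (-0.62 to -0.15) at 20 snoRNA sites. They were 0.083 (-0.17 to 0.14) at 75 miRNA sites and 0.12 (-0.45 to 0.64) at 10 sites of miscellaneous RNAs. The intervals of miRNAs and miscellaneous RNAs contain both 0 and 0.098, the median of all sites. The classes that follow, taken from the RefSeq annotation, were drawn after these values had been seen, so they are a description.

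Spliceosomal and other snRNA genes had a lower mitotic DBD signal with few exceptions. Of the 25 sites within 1 kb of a RefSeq snRNA gene, 20 lay at genes other than U6 alone. At these 20 the median signal was 3.49 in A and 2.59 in M, the median log2 M/A was -0.79 (-0.95 to -0.62), and 18 were lower in M, against 41.4% of all sites. These sites were strong ones, with 16 of 20 in the top quartile of asynchronous signal, a quartile whose own median was -0.029. By family the medians were -0.65 at 6 U1 sites, -0.69 at 5 U2 sites and -0.65 at 4 sites of U3, which processes ribosomal RNA. RefSeq types U3 as snRNA, but GENCODE types the U3 gene Rnu3b4 as snoRNA, where its site gave the lowest value, -1.03. The snRNA class here and the GENCODE snoRNA class above thus share at least this site. The sites of U4 (-0.87), U5 (-0.83 at both), U7, which matures histone mRNA ends (-0.89), and U12 (-1.49) were all lower in M.

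The lowest values belonged to a pair of U1 genes on chromosome 12. The site of Gm22317 (chr12:54737224-54739300) had 15.0 in A against 3.62 in M (log2 M/A -2.06), and that of Gm22634 (chr12:54709830-54711744) had 18.7 in A against 4.77 in M (log2 M/A -1.97). The genes are identical over their 164 bases and over 258 bases before and 255 after them, so reads from one cannot be told from reads of the other and the 2 sites may carry 1 signal. Without them the median of the remaining 18 sites was -0.72. Rnu12, whose site includes the Poldip3 start, had 3.05 in A against 1.09 in M (log2 M/A -1.49). Rnu3b4 had 5.86 in A against 2.87 in M (log2 M/A -1.03), and Rnu2-10 had 5.69 in A against 2.95 in M (log2 M/A -0.95). The exceptions were the U1 sites of Rnu1b6, which also holds tRNA genes (3.29 in A, 3.77 in M, log2 M/A 0.20), and of Gm23405 (0.955 in A, 1.27 in M, log2 M/A 0.42). U2 and U3 genes also occur in close copies, so their sites are not independent.

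Halo-HSF2 shared this direction. It was lower in M at 18 of the 20 sites, where 13.7% of all its sites were lower, with a median of -0.29. The anti-HSF2 libraries of Halo-HSF2 had a median of 0.55 at these sites, and endogenous HSF2 had -0.083. The 2 sets of Halo-HSF2 libraries thus gave medians of opposite sign. Their labels differ in the HA tag as well as the antibody, so antibody, construct and library set cannot be told apart. Anti-HA signal in cells without a construct was not analysed here. The 5 sites with U6 genes alone had a median of 0.0078, with 3 higher in M, among them Gm24019 with 2.01 in A against 3.21 in M (log2 M/A 0.68).

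**Figure D5:**
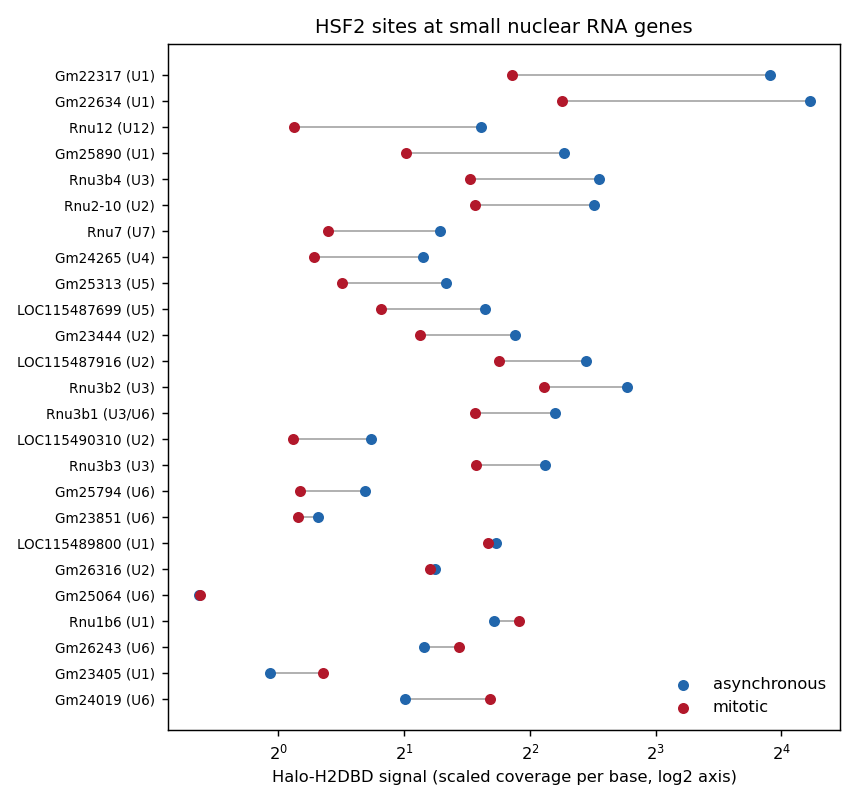
Halo-H2DBD signal in scaled coverage per base (horizontal, log2 axis) in asynchronous (blue) and mitotic (red) cells at the 25 sites within 1 kb of a RefSeq snRNA gene (vertical, first gene and family of each site), with 1 point a phase. The red point lies left of the blue one at the sites from Gm22317 at the top to Gm26316, and the gap is widest at the U1 genes Gm22317 (15.0 and 3.62) and Gm22634 (18.7 and 4.77).

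Sites at tRNA genes lay above equal signal, near the level of all sites. At 43 sites within 1 kb of a tRNA gene the median signal was 1.79 in A and 2.05 in M, the median log2 M/A was 0.26 (0.060 to 0.48), and 30 (69.8%, 95% interval 54.9 to 81.4) were higher in M. Both intervals contain the values over all sites, 0.098 and 58.6%. None was 2-fold or more lower, against 3.37% of all sites, and 3 were 2-fold or more higher, against 3.98%. These were n-TRtcg5 near Polg (chr7:79464207-79467773), with 0.825 in A against 1.87 in M (log2 M/A 1.18), n-TEttc8 (chr9:104407685-104409284), with 0.712 in A against 1.59 in M (log2 M/A 1.16), and n-TDgtc12 with n-TSaga8 (chr13:21940100-21941347), with 1.39 in A against 2.95 in M (log2 M/A 1.08). The lowest was n-TFgaa3 with n-TNgtt7, 1.94 in A against 1.02 in M (log2 M/A -0.93). Halo-HSF2 had a median of 0.71 at the tRNA sites. Small nucleolar RNAs mostly guide ribosomal RNA modification and mostly lie in introns of other genes. Their sites numbered 16 with a median of -0.34. Of these, 4 (25.0%, 95% interval 10.2 to 49.5) were higher in M, against 58.6% of all sites. Several are the promoters of host genes given above, such as Hspa8 and Rps13.

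Protein-coding starts with a higher signal are given last. They are the 12 highest and 12 lowest log2 M/A among coding-start sites with a mean signal at or above the median of 1.74. This cut was not set against any background level, so it does not mark sites as bound. The highest was Dop1b, which acts in endosome traffic (chr16:93710909-93713196), with 1.21 in A against 3.35 in M (log2 M/A 1.47). Golim4, a Golgi membrane protein gene, followed with 1.20 in A against 3.02 in M (log2 M/A 1.34). Cdv3, whose element is printed above, had 1.34 in A against 3.35 in M (log2 M/A 1.32). Hsph1 was also among them, and so were Zfand5 (1.26), the nuclear pore gene Nup210 (1.20), the mitochondrial channel gene Vdac3 (1.14), the kinase gene Src (1.13), Rxylt1 (1.12), Zfp318 (1.11), the RNA demethylase gene Alkbh5 (1.10) and R3hdm2 (1.09), all as log2 M/A of the DBD. Halo-HSF2 was also higher in M at all 12, as it was at 86.3% of all its sites.

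Of the 12 lowest, 3 were the snRNA and histone sites at Poldip3, at Grcc10 with Ptpn6 (Rnu7) and at Hist1h3e, and another was the site of Hist1h1a. Nob1, which encodes a ribosome assembly nuclease (chr8:107424082-107425875), had 3.39 in A against 1.40 in M (log2 M/A -1.28). Ubxn6, a cofactor of the ATPase p97, had 4.25 in A against 1.93 in M (log2 M/A -1.14). Fbxw7, the substrate receptor of a ubiquitin ligase, had 3.40 in A against 1.60 in M (log2 M/A -1.09). The remaining members were Ciart (-0.97), Stk38 (-0.95), Ppp2r3d (-0.92), Rad51c with Tex14 (-0.89) and Hmgcs1, which acts in sterol synthesis (-0.88), again as log2 M/A of the DBD. Halo-HSF2 was higher in M at 5 of these 12 sites, against 86.3% of all its sites. Its log2 M/A was 0.11 at Nob1, -0.043 at Ubxn6 and 0.45 at Fbxw7.

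Among the other sites at or above the same cut, the highest log2 M/A was at Gm30177 (chr13:36727150-36727883), 0.977 in A against 2.70 in M (1.47). The exonic site chr4:46663790-46666147 followed with 1.04 in A against 2.82 in M (1.44). The start of Gm35048 had 1.06 in A against 2.43 in M (log2 M/A 1.20), and the intergenic site chr13:110018248-110021150 had 1.67 in A against 3.52 in M (log2 M/A 1.08). The lowest was at chrX:4135789-4136506, an intergenic site with 80.4% repeat sequence, 4.10 in A against 0.955 in M (log2 M/A -2.10). Beside the U1 pair and the strong site on chromosome 2, the intronic interval chr17:7952269-7952439 had 20.7 in A against 6.95 in M (log2 M/A -1.57). The highest ratio of all sites, 6.73 in log2 M/A, was at the start of Asmt, the last enzyme of melatonin synthesis (chrX:170672780-170675555), where the asynchronous signal was 0.0248 and the mitotic signal 2.63. Halo-HSF2 at that site had a log2 M/A of 0.67, and a ratio over so low an asynchronous value has little weight.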

How the data were processed

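CUT&Tag libraries of Halo-H2DBD (2 asynchronous, 2 mitotic, anti-HA) and of the proteins compared with it were grouped by their labels. Per the labels and the methods of the study, the authors mapped reads to mm10 with Bowtie2, kept duplicates, scaled coverage by reads mapped to the dm6 genome of the S2 spike-in, called endogenous HSF2 sites with SEACR against IgG, and averaged coverage over each site with deepTools. The deposited values are signal, the mean scaled coverage per site averaged over 2 replicates, so no replicate, read count or background level could be used. The study lists reads and a scaling value for each library, which differ between libraries and are not used here. The methods describe setting asynchronous samples to 1, while the listed asynchronous values are not 1. Which of these the deposited signal carries was not tested; a factor common to a condition would shift every log2 M/A alike.

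Exact repeats of an interval (6 rows) were counted once, and the ratio M/A was taken, as log2, at sites with no signal of 0. Transcript starts within 1 kb came from GENCODE M21, and tRNA, snRNA and snoRNA genes, promoters and sequences from RefSeq on GRCm38.p6. Overlap with HSF1 and SOX2 sites needed 1 bp. GC, CpG and elements were read from the 2131 sites on assembled chromosomes. Medians carry 95% order-statistic intervals and shares Wilson intervals over sites, and an interval of a difference of medians combines the 2 half-widths as a root of summed squares. No test was run, and intervals cover neither replicate nor counting error. Sites named are those at Hsp90aa1 and Hspa8; for each gene list all sites up to 5, otherwise the highest and lowest ratio and the highest signal; the 12 (coding starts) or 5 (others) highest and lowest ratios at or above the median mean signal; the 10 highest signals in A and in M; and the 5 highest and lowest ratios with an element. A few of the sites that this rule names are not reported here. Other genes of the lists, and the snRNA, tRNA and snoRNA sites, were named after their values were seen. The members and lists were chosen with earlier results of these data known. The interval code was tested on simulated data. Python 3.11.15, numpy 2.4.6, pandas 2.3.3, scipy 1.17.1, matplotlib 3.10.9, pysam 0.24.0 and samtools 1.23.1 were used. Alternatives added a constant to each signal (0.1 or 1), required a mean signal of 1, merged overlaps, removed sites with 50% or more repeat sequence, centred on the weakest quartile, or changed a class definition.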

Additional observations from a re-analysis of the deposited data

How the results depend on the processing

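No paired analysis was possible because the deposited signals are averaged over the 2 replicates of a condition, and for the same reason no replicate could be left out. Of 63 values under alternatives fixed for the main results, 54 stayed close to the value given above and 9 did not. The 54 include those of the merge of overlapping intervals, which could not differ, because no distinct sites overlapped. The sign changed in the strength difference alone, whose interval contains 0. With 1 added to each signal the median log2 M/A was 0.058, and there were 1 site past 2-fold higher and 6 lower. The added constant shrinks ratios of low signals by construction. The log2 ratio of summed signal was 0.00052. With a mean signal of at least 1, 32 sites were 2-fold or more lower, in place of 72. The difference with a heat shock element was -0.32 (-0.72 to 0.077) for 4 or more units and -0.073 for 2 or more. The difference between the strongest and weakest quartile, 0.041, was -0.056 with a mean signal of at least 1, and the cause was not tested. It was -0.29 with quartiles of the asynchronous DBD signal. That signal is the denominator of the ratio, so sorting and ratio are linked by construction. How much of the -0.29 follows from this link was not tested. The difference by endogenous HSF2, 0.14, was 0.079 (-0.060 to 0.22) with a mean signal of at least 1. The small differences by HSF1 and SOX2 kept their sign, but their intervals contained 0 when an overlap of at least 50% of the site (HSF1, -0.027) or of its centre (SOX2, -0.045) was required, and also with 1 added (HSF1, -0.025) and with a mean signal of at least 1 (SOX2, -0.042). The snRNA median (-0.79) ranged from -0.83 to -0.56 and the tRNA median (0.26) from 0.17 to 0.26 under 5 alternatives each, added after seeing the data. The averaged signals show neither counts nor the spread between libraries, so the precision of a single site is unknown, also at signals under 1, where most sites that were 2-fold or more lower lie.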
